A study of Mus musculus with 12 samples.

Results

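The baseline difference between HSF1 knock-out mouse embryonic fibroblasts (HSF1 KO MEF) and wild type MEF (WT MEF) was read from 6 of the 12 libraries of the series, 3 of each genotype. They were chosen by their labels, which give the genotype and no LiCl. The other 6 libraries held the same 2 genotypes after 48 h in 20 mM LiCl, a salt that inhibits the kinase GSK3, and were used here to see which baseline differences were also found in separate libraries. All 12 libraries share the label for mouse embryonic fibroblasts. No other allele or agent is given for any group, and the sources used here do not give the strain, the age and sex of the embryos, the passage or the number of cultures. The labels and the text of the study call the cells HSF1 knock-out, whereas one legend writes HSF1+/-, and the labels were followed. In one library of each group the label carries no replicate number, and it is called the unnumbered library. The methods say that the sequencing was done 3 times and do not say whether each was a separate culture, and p-values therefore reflect library-to-library spread that may be technical. The cultures can also differ in origin, passage or cell mixture, and the genotype and any such difference between the cultures cannot be told apart.

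HSF1 is the transcription factor that drives the heat shock response. When misfolded protein accumulates, it forms trimers and binds heat shock elements, which are repeats of GAA and its reverse complement TTC in the promoters of chaperone genes, and in unstressed cells most of it is held inactive. MEF are connective tissue cells grown from minced mouse embryos. They secrete collagen and other matrix, can take on a contractile myofibroblast state, and keep much of the Hox code of the body region they came from, and a culture can hold other cells of the embryo such as macrophages.

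Expression was measured by sequencing of poly(A) RNA, and the deposited values were read as FPKM (fragments scaled to transcript length and library size). Summed per gene they covered 12988 genes, of which 12279 averaged 0.5 FPKM or more across the 12 libraries and were tested, and 709 were not. The summed FPKM of a library was 357352 to 369917 in WT MEF and 344208 to 370025 in HSF1 KO MEF. The number of reads behind a value is unknown. Genes of a list that are not in the table or not tested are left out of its counts, and a gene that reached the table or the test only through the group where it is high had to differ. Across genes, which are not independent replicates, Pearson's r was 0.977 to 0.983 between libraries within a group and 0.915 to 0.923 between HSF1 KO and WT libraries. The transcript of Saa3, an acute phase gene, alone made up 4.90, 5.04 and 2.94% of the sum in WT MEF, the lowest in the unnumbered library, and 0.708 to 0.842% of it in HSF1 KO MEF. Genes encoded in mitochondria made up 1.91 to 2.76% in WT MEF and 3.21 to 4.27% in HSF1 KO MEF.

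HSF1 KO MEF and WT MEF differed in 4684 of the 12279 genes tested (38.1%) at an adjusted p under 0.05 from limma. In HSF1 KO MEF, 2181 genes were higher (17.8%) and 2503 were lower (20.4%). The counts of list members given below are to be read beside these shares, and no list was tested against them. Among the higher genes 531 (4.32% of those tested) had a log2 fold change over 1, and 578 of the lower genes (4.71%) one under -1, while 46 and 41 went past 3 and -3. Fold changes are differences of log2(FPKM + 1), a scale on which changes of weakly expressed genes come out too small. The median of all genes tested was -0.03. For 2768 of the genes tested all HSF1 KO libraries lay above all WT libraries, and for 3310 all lay below. Groups that do not overlap were therefore common among these genes. The genes of largest rise were mostly genes of macrophages and their chemokines, and the 15 of largest fall were matrix, acute phase and low-oxygen genes, 2 genes of the Y chromosome, the cytokine gene Tslp and the cytokine receptor gene Il13ra2.

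**Figure D1:**
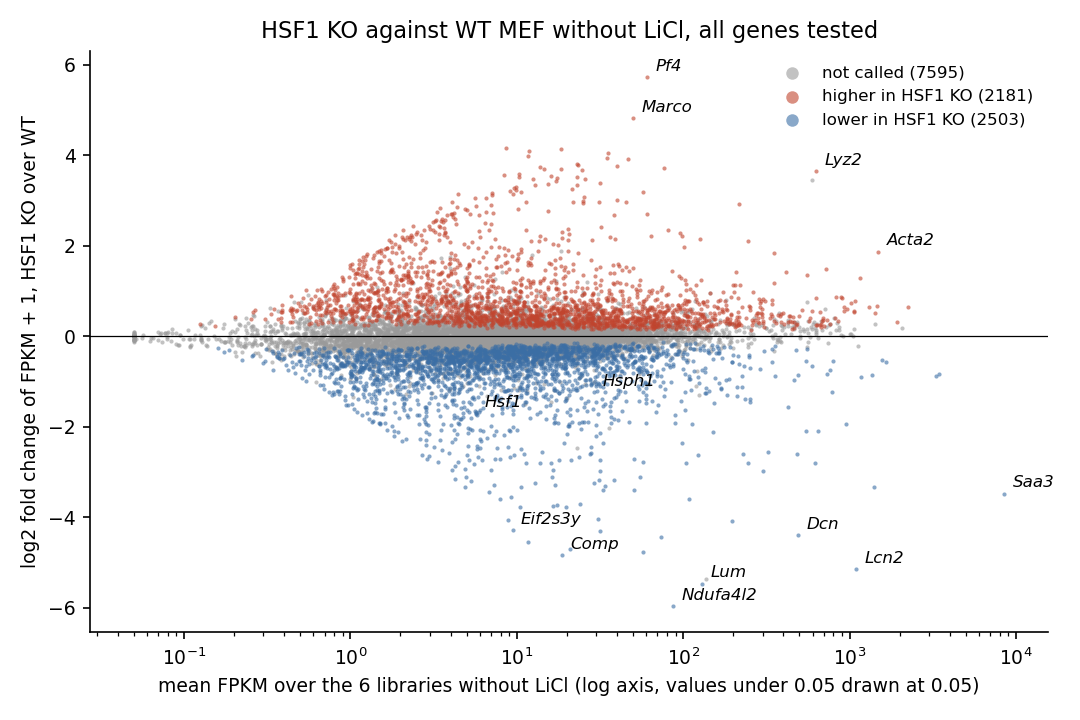
Log2 fold change of every gene tested in HSF1 KO MEF over WT MEF without LiCl against the mean FPKM of the 6 libraries (log axis, values under 0.05 drawn at 0.05). The 2181 genes that passed as higher are red, the 2503 that passed as lower are blue (adjusted p under 0.05), and the other 7595 are grey. Pf4 and Marco lie at the top, and Ndufa4l2, Lum and Lcn2 at the bottom.

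Hsf1 (ENSMUSG00000022556.11) spans positions 76477422 to 76501913 of chromosome 15 (GRCm38, forward strand). The libraries read 11.1, 7.96 and 8.17 FPKM for WT against 0.939, 3.89 and 2.07 FPKM for HSF1 KO (log2 fold change -1.70, standard error 0.31, adjusted p = 0.00142). All 3 HSF1 KO libraries lay below all 3 WT libraries, but none was at 0. The deleted part of the gene is not given in the sources used here, and whether a remaining level comes from outside it was not tested. Hsf2, a relative that can bind the same elements, had a log2 fold change of -0.23 (adjusted p = 0.0571). Hsf4 (-0.01, adjusted p = 0.972) and Hsbp1, which encodes a protein that binds HSF1 trimers (0.17, adjusted p = 0.104), did not pass either.

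Of 35 chaperone genes known as targets of HSF1, 7 were higher, 6 were lower and 22 did not pass, with a median log2 fold change of 0.08. Over all genes tested the shares were 17.8% higher and 20.4% lower, so in the main fit this count lay near the background. With the replicate label added to the fit as a block, 12 of the 35 were higher, beside 2426 of all 12279 genes tested. The one that moved by more than a log2 fold change of 1 was Hsph1, which encodes HSP110, a nucleotide exchange factor for HSP70. Hsph1 stood at 42.8, 39.8 and 40.7 FPKM in the WT libraries against 17.7, 15.2 and 17.9 FPKM in the HSF1 KO libraries (log2 fold change -1.23, standard error 0.08, adjusted p = 6.48e-07), and the groups did not overlap. Hspb8, a small heat shock protein gene, fell from 52.5, 51.7 and 52.6 to 39.2, 34.9 and 35.2 FPKM (-0.51, adjusted p = 3.98e-05). Bag3, whose product works with HSPB8 to bring misfolded protein to autophagy, fell from 71.1, 70.1 and 66.7 to 53, 54.2 and 56.5 FPKM (-0.34, adjusted p = 0.000921). Both falls were smaller than that of Hsph1, and their libraries did not overlap. Hspa4l (-0.59), the polyubiquitin gene Ubb (-0.29) and Dnaja2 (-0.17) were the other members that were lower, Dnaja2 not without the unnumbered WT library, KO replicate 1 or KO replicate 2 (adjusted p = 0.071, 0.0596 and 0.0514).

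The mitochondrial chaperones went the other way. Hspd1, which encodes HSP60, stood at 76.7, 74.9 and 81.8 FPKM in the WT libraries against 132, 131 and 139 FPKM in the HSF1 KO libraries (0.78, standard error 0.05, adjusted p = 7.41e-07). Hspe1, which encodes its cochaperonin HSP10, was at 76.1, 70.2 and 81.8 against 128, 139.8 and 113 FPKM (0.73, adjusted p = 5.15e-05). Both genes were higher in all 3 HSF1 KO libraries than in any WT library. Cacybp (0.49), Hspa4 (0.44), Hspa1b (0.32), Hspa9 (0.28), which encodes the mitochondrial HSP70, and Ptges3, which encodes the HSP90 cochaperone p23 (0.20), were higher by less. The rise of Ptges3 did not pass without WT replicate 1, WT replicate 2, KO replicate 1 or the unnumbered KO library, with adjusted p of 0.0577 to 0.102, or after quantile normalization (adjusted p = 0.217). Reads of Hspa1b and its near-identical copy Hspa1a (0.02, adjusted p = 0.909) cannot be told apart with certainty. The abundant members did not pass: Hspa8 had a log2 fold change of 0.14 (adjusted p = 0.24), Hsp90ab1 of 0.11 (adjusted p = 0.119), Hsp90aa1 of 0.28 (adjusted p = 0.276) and Dnajb1, the HSP40 gene, of -0.06 (adjusted p = 0.442). With the replicate block Hspa8 passed as higher (adjusted p = 0.0176).

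The promoters of 4 of these genes are shown because they hold heat shock elements and their genes did not move together. Each is the RefSeq window of GRCm38.p6 from 250 bases before to 50 after the start, printed 5′ to 3′ on the strand of the gene. Capitals mark matches to GAANNTTC in Bag3 and Hspa1b, and matches to a longer form of 3 units in Hsph1 and Hspe1, which is GAANNTTC with NNGAA after it or, on the other strand or the other way round, TTCNNGAA with NNTTC after it. They are Hsph1 at chr5:149636287-149636586 (reverse strand), Hspe1 at chr1:55087898-55088197 (forward), Bag3 at chr7:128523333-128523632 (forward) and Hspa1b at chr17:34959189-34959488 (reverse).
Hsph1: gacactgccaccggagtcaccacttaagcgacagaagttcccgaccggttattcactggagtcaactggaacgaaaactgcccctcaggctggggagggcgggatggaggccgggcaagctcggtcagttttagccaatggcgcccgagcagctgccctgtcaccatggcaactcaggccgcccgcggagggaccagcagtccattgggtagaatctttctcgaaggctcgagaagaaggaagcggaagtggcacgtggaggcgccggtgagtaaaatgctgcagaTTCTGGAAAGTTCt
Hspe1: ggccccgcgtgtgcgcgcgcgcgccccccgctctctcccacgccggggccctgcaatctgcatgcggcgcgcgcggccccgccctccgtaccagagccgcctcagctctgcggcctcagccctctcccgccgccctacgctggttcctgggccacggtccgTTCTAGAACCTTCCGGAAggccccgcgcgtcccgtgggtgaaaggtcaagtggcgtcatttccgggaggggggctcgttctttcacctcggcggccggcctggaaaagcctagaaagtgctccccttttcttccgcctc
Bag3: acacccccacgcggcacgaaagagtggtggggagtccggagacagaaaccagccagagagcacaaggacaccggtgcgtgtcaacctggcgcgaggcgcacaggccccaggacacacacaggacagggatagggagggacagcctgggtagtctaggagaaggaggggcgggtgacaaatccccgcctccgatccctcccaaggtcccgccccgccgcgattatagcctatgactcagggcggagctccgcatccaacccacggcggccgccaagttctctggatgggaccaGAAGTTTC
Hspa1b: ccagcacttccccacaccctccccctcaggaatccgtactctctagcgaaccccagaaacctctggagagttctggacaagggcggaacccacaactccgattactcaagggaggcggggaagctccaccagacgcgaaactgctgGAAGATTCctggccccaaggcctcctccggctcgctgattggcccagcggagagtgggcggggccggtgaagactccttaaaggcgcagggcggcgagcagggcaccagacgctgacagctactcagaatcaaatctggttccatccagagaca

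The marked matches sat 36 bases after the start in Hsph1, 89 and 84 bases before it in Hspe1, where the 2 matches overlap, 42 after it in Bag3 and 104 before it in Hspa1b. Pairs in the other order, TTCNNGAA, were searched only as part of the 3 units, so by themselves they are neither marked nor counted. The Hsph1 window holds such a pair, ttctcgaa, before the start. The window of Hspd1, which lies head to head with Hspe1, held the 3 units as well. Searched on both strands, GAANNTTC was in 12 of the 28 chaperone genes that have a window (42.9%), the 3 units in 5, and over all windows of this length in the table the shares were 7.86 and 0.603%. The table matched 9752 of the 12272 symbols tested, under 80%, so no share is given for the genes higher or lower. The 5 members with the 3 units were Hsph1, which was lower, Hspd1 and Hspe1, which were higher, and Chordc1 (0.25, adjusted p = 0.164) and Dnajb6 (0.08, adjusted p = 0.264), which did not pass. A match is a description of letters, and binding of HSF1 was not measured here.

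All 7 measured subunits of the TRiC chaperonin, which folds actin and tubulin, were higher in HSF1 KO MEF, by 0.30 (Tcp1) to 0.65 (Cct2), Tcp1 not after quantile normalization (adjusted p = 0.0653). Cct2 rose from 125, 120.0 and 128 to 195, 193 and 197 FPKM (adjusted p = 8.51e-07), and the summed level of the 7 genes was 604 to 639 FPKM in WT MEF and 849 to 874 FPKM in HSF1 KO MEF. Among 20 genes of the unfolded protein response of the endoplasmic reticulum, 8 were higher and 1, Herpud1 (-0.57), was lower. The rises were at most 0.39 (Edem1), and 5 were higher without KO replicate 1, without KO replicate 2 or after quantile normalization. Hspa5, which encodes the chaperone BiP, stood at 332, 133 and 127 FPKM in the WT libraries against 128, 129 and 315 FPKM in the HSF1 KO libraries, with more spread within the groups than between them (-0.04, adjusted p = 0.964). Of 19 targets of ATF4, the factor of the amino acid response, 9 were higher and 6 lower. The higher ones included 3 enzymes of serine synthesis and its folate branch, Phgdh (WT 13.7, 13.8 and 13.3 FPKM, HSF1 KO 66.6, 62.1 and 63 FPKM, log2 fold change 2.15, adjusted p = 6.78e-09), Psat1 (1.82) and Mthfd2 (1.08), and the amino acid transporter gene Slc7a5 (1.32). Atf4 itself was lower (-0.33, adjusted p = 0.0231), but did not pass without WT replicate 1, WT replicate 2 or the unnumbered KO library (adjusted p = 0.0792, 0.0833 and 0.0813) or under median-of-ratios scaling (adjusted p = 0.0504). Ddit3, which encodes the stress factor CHOP, did not pass (0.16, adjusted p = 0.287).

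**Figure D2:**
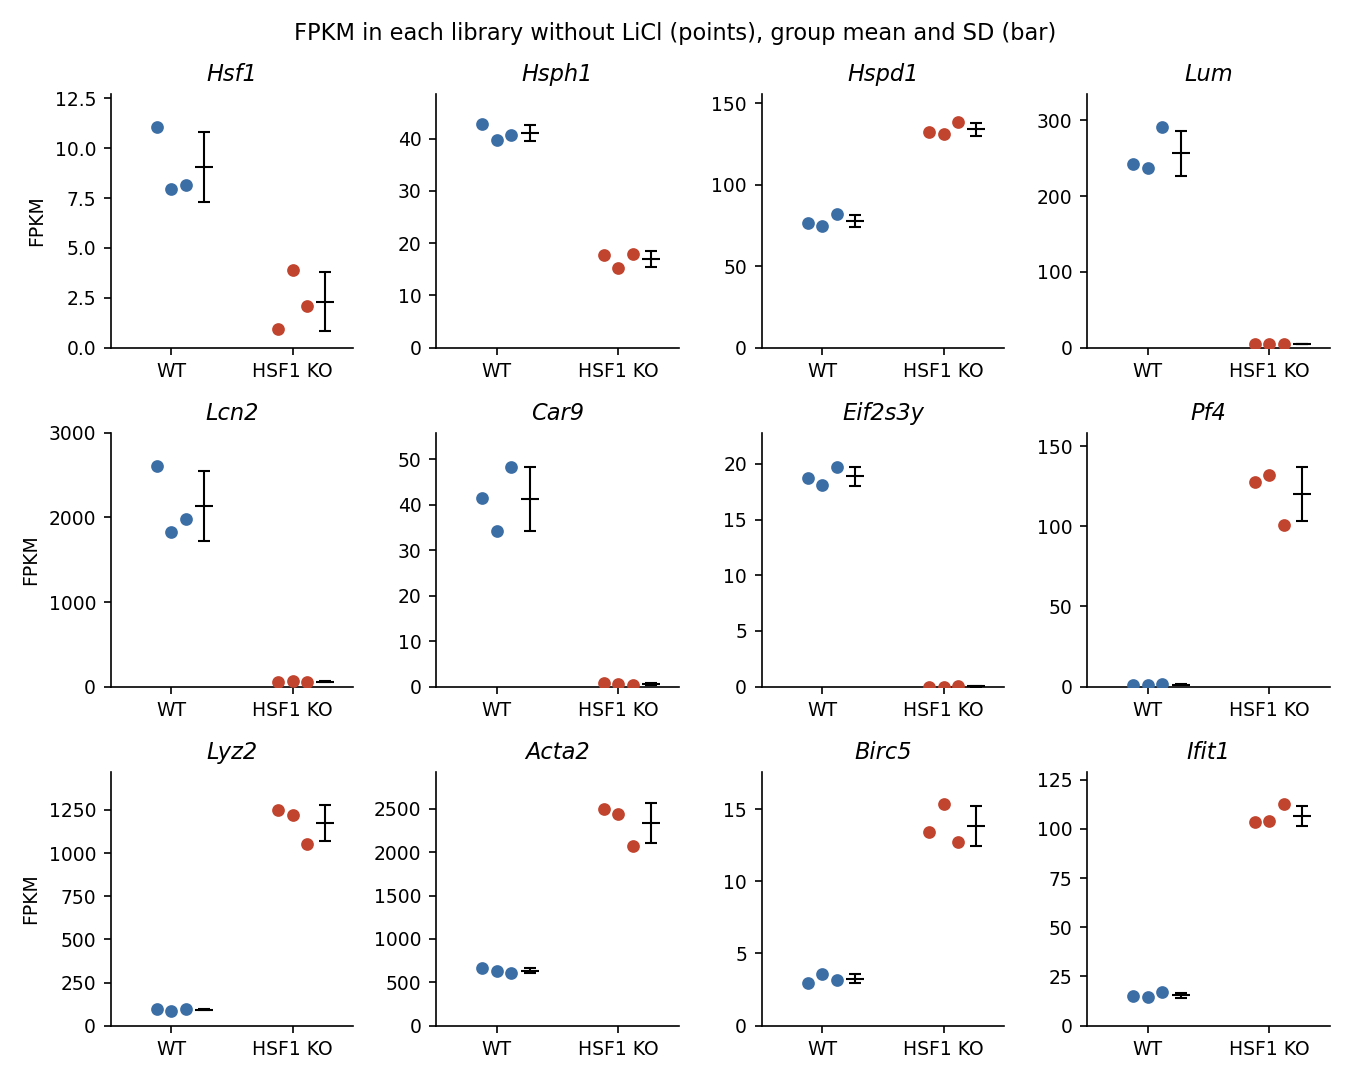
FPKM of 12 genes in each library without LiCl (linear axes from 0), with the WT MEF libraries in blue, the HSF1 KO MEF libraries in red, and the group mean and SD as a bar. The groups do not overlap in any of the 12 panels, with Hsf1, Hsph1, Lum, Lcn2, Car9 and Eif2s3y lower and Hspd1, Pf4, Lyz2, Acta2, Birc5 and Ifit1 higher in HSF1 KO MEF.

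Genes of macrophages, the phagocytes of tissue, made up the largest rise. All 28 macrophage markers tested, of 30 listed, were higher in HSF1 KO MEF, with a median log2 fold change of 3.19, and their summed level was 135 to 145 FPKM in WT MEF and 1692 to 1907 FPKM in HSF1 KO MEF. Members such as Ptprc, at 0 in every library outside HSF1 KO MEF without LiCl, were in the table only through that group. The count and the median thus hold members that had to be higher. Pf4 encodes platelet factor 4, a chemokine that macrophages and megakaryocytes make. On the scale of log2(FPKM + 1) it had the largest rise of all genes named. It stood at 1.18, 1.15 and 1.49 FPKM in the WT libraries against 128, 132 and 101 FPKM in the HSF1 KO libraries (log2 fold change 5.73, standard error 0.18, adjusted p = 1.97e-09). Marco, a scavenger receptor gene, was at 3.05, 2.35 and 2.09 against 104, 95.8 and 92.8 FPKM (4.82), and C1qb, a subunit of complement C1q, at 1.24, 1.26 and 0.772 against 37.6, 38.7 and 31.7 FPKM (4.15). Lyz2, the lysozyme gene, was the most abundant marker, at 95.8, 87.8 and 94.2 FPKM in the WT libraries against 1248, 1220 and 1052 FPKM in the HSF1 KO libraries, 12.7 times as much. For each of these genes all HSF1 KO libraries lay far above all WT libraries.

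The leukocyte antigen gene Ptprc (CD45) was listed at 0 in all WT libraries and was at 3.57, 3.69 and 3.94 FPKM in HSF1 KO MEF, and Aif1 (IBA1) was listed at 0 and was at 2.73, 2.35 and 2.44 FPKM. The receptor of the macrophage growth factor, Csf1r, was at 1.29, 1.03 and 1.11 against 13.2, 13 and 13.4 FPKM (2.73), and Spi1, the master transcription factor of the lineage, at 0.542, 0.51 and 0.87 against 9.3, 11 and 8.98 FPKM (2.72). Tyrobp (4.06), Fcer1g (3.81), Ctss (3.92), C1qc (3.98) and Cd52 (3.71) were also among the 15 largest rises, as was Kctd12, which was listed at 0 in WT MEF and was at 15.8, 14.7 and 20.9 FPKM. In RNA of a whole culture, fewer or more cells of a type and less or more RNA per cell cannot be told apart. Of 18 markers of lymphocytes and granulocytes 3 were in the table, where S100a8 did not pass (0.34, adjusted p = 0.775) and S100a9 was listed at 0 in all 6 libraries.

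Chemokines and cytokines went in both directions, 11 higher and 13 lower of 32. Higher were the chemokine genes Ccl3 (4.64, 2.71 and 2.89 FPKM in the WT libraries against 67.3, 69.2 and 62.2 FPKM in the HSF1 KO libraries, log2 fold change 3.95), Ccl9 (3.78) and Ccl4 (3.74), and Il1b (2.89) and Tnf (2.60), all of which macrophages make. Ccl12 (4.09), Ccl6 (3.77) and Ppbp (3.72) were among the largest rises of all genes. Several cytokines that stromal cells make were lower. Tslp fell from 144, 134 and 147 to 5.88, 6.43 and 4.48 FPKM (-4.44, adjusted p = 1.6e-09), Ccl11, which encodes eotaxin, from 36.9, 38.4 and 37.7 to 1.74, 1.87 and 1.85 FPKM (-3.78), and Tnfsf11, which encodes the osteoclast factor RANKL, from 60.3, 62.5 and 65.1 to 5.42, 5.5 and 5.22 FPKM (-3.32). The neutrophil chemokine genes Cxcl5 (-1.93), Cxcl1 (-1.56) and Cxcl2 (-0.87) were lower as well, while Ccl2 did not pass (0.20, adjusted p = 0.1). The macrophage marker list moved with the higher members, and its part in them was not tested.

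Interferon-stimulated genes are switched on in cells that sense virus or interferon. Of 31 tested, 29 rose and 2 fell, with a median log2 fold change of 1.60. Members such as Cmpk2, at 0 in every library with LiCl and at 0.595 FPKM or less in WT MEF, passed the filter only through HSF1 KO MEF without LiCl. The count and the median thus hold members that had to be higher. Ifit3, whose product works with IFIT1 on viral RNA, stood at 10.5, 10.7 and 10.2 FPKM in the WT libraries against 105, 108 and 99.8 FPKM in the HSF1 KO libraries (3.20, standard error 0.07, adjusted p = 2.71e-10). Isg15, a ubiquitin-like modifier gene, rose from 49.8, 51.5 and 46.7 to 408, 416 and 320.0 FPKM (2.92), and Irgm1, an immunity-related GTPase gene, from 26.2, 24.5 and 27.1 to 137, 136 and 139 FPKM (2.36). Replicates lay close together and far from the other group in each case. Ifit1 (2.70), Usp18 (3.02), Cmpk2 (2.27) and the factor genes Irf7 (1.35) and Irf9 (0.54) were higher too. The exceptions were Ifi27 (WT 149, 149 and 128 FPKM, HSF1 KO 54.8, 53.4 and 48 FPKM, -1.43) and Ifitm1 (-1.71). The macrophage marker sum was higher in the same 3 libraries, and its part in these rises was not tested.

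The promoters of 2 interferon-stimulated genes are shown with the element that such genes share in capitals, a pair of TTTC parted by 2 bases of any kind, read on either strand, where neighbouring matches overlap in Isg15. They are Isg15 at chr4:156200769-156201068 (reverse strand) and Ifit1 at chr19:34640639-34640938 (forward).
Isg15: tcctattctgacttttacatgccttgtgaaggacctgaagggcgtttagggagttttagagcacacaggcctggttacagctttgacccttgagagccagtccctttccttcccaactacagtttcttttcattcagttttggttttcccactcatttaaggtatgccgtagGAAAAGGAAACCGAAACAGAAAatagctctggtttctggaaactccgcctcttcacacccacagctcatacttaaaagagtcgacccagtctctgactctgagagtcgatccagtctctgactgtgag
Ifit1: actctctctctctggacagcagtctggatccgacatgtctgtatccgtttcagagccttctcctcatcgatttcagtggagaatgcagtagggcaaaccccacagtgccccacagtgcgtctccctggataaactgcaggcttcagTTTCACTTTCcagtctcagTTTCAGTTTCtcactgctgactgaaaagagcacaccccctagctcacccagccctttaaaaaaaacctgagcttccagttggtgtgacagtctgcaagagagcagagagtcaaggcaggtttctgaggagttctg

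Isg15 held 3 matches from 78 to 66 bases before the start, and Ifit1 held 2, 104 and 85 bases before it. The letters were found in 16 of 24 listed genes with a window, which is under 80% of the 31 members, and in 3.44% of all windows in the table.

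Antigen presentation did not follow. Of 19 genes, 3 were higher and 8 lower. The class I genes H2-K1 (159, 155 and 151 FPKM in the WT libraries against 70.3, 71.1 and 60.3 FPKM in the HSF1 KO libraries, -1.19) and H2-D1 (-0.41) were lower, as were H2-Q6 (-2.82) and H2-Q7 (-3.29), close copies whose reads may be shared. The class II gene H2-Ab1 fell from 31.2, 31.5 and 27.2 to 2.51, 2.75 and 2.49 FPKM (-3.11), while the class II invariant chain Cd74 was at 0.567 FPKM or less in all 6 libraries. B2m, the shared light chain of class I, did not pass (0.01, adjusted p = 0.951), and the immunoproteasome genes Psmb8 (0.88) and Psmb10 (0.66) and Tapbp (0.34) were the 3 that were higher.

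All 13 complement and defence genes tested, which encode secreted proteins of complement and the acute phase response, were lower in HSF1 KO MEF, with a median of -2.80. Members such as C4b, at 0.705 FPKM or less in every other library, passed the filter only through WT MEF without LiCl. The count and the median thus hold members that had to be lower. Saa3, serum amyloid A3, was the most abundant transcript in WT MEF, at 18170, 18413 and 10551 FPKM, against 1432, 1537 and 1157 FPKM for HSF1 KO (-3.48, adjusted p = 6.69e-07). Lcn2, which encodes the iron-sequestering protein lipocalin 2, fell from 2602, 1823 and 1983 to 58.1, 65.1 and 53.7 FPKM (-5.14, standard error 0.14, adjusted p = 8.83e-10). The complement protease gene C1s1 stood at 101, 101 and 101 FPKM in the WT libraries against 13.4, 13.5 and 14.6 FPKM in the HSF1 KO libraries (-2.78). Even the lowest WT library lay several times above the highest HSF1 KO library for each. Hp (-4.08), Lbp (-4.04), the C1 inhibitor gene Serping1 (-3.60), Cfb (-3.28), C4b (-2.71) and C3 (-1.91) were lower, as was the acute phase inhibitor gene Serpina3n (-4.30), which is not on the list. In contrast to the macrophage C1q genes, the C1 protease genes C1s1 and C1ra (-2.04) thus fell.

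Fibroblast identity genes were lower in most cases but not lost. Of 25, 16 were lower, 2 were higher (Vim 0.54, Fbln2 0.46) and 7 did not pass. The median was -0.81, and the summed level was 7829 to 8583 FPKM in WT MEF and 5417 to 5727 FPKM in HSF1 KO MEF. The main collagen genes Col1a1 (WT 1025, 1089 and 850.2 FPKM, HSF1 KO 1090, 962 and 996 FPKM, 0.05, adjusted p = 0.749) and Col1a2 (-0.02, adjusted p = 0.853) did not pass. The small leucine-rich proteoglycans, which bind collagen fibrils, carried the largest falls. Dcn, which encodes decorin, fell from 924, 902 and 974 to 40.7, 43.4 and 46.5 FPKM (-4.39, standard error 0.07, adjusted p = 8.48e-11), and Lum, which encodes lumican, from 242, 237 and 291 to 4.7, 5.01 and 4.71 FPKM (-5.46). Prelp (-4.76) and Fmod (-2.81) of the same family fell too. Col3a1 went from 573, 592 and 503 to 99, 91 and 92.6 FPKM (-2.55), the receptor gene Pdgfra from 61, 61.5 and 60.9 to 5.06, 4.11 and 5.7 FPKM (-3.39), and Thy1, a surface marker of fibroblasts, from 371, 382 and 341 to 145, 144 and 127 FPKM (-1.39). For none of these falls did the groups overlap.

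Of 38 other matrix and matricellular genes, 10 were higher and 16 lower. Among the higher were Col4a2 (0.71), Col4a5 (0.87), Nid1 (1.00), Lama2 (1.08) and Col8a1 (1.41). Lower were Ccn5 (WT 424, 414 and 339.9 FPKM, HSF1 KO 69.6, 65 and 56.8 FPKM, -2.60), Thbs2 (-1.26), Ccn3 (-1.68), the crosslinking enzyme gene Lox (-0.86) and Spp1, osteopontin (-0.84), which was not lower after quantile normalization (0.31, adjusted p = 0.292). Thbs4 fell from 23.1, 24.3 and 22.8 FPKM to 0.0876, 0 and 0.0282 FPKM (-4.56). Of 23 matrix proteases and their inhibitors, 4 were higher and 12 lower. The stromelysin gene Mmp3 fell from 2691, 2683 and 2310 to 251, 249 and 258 FPKM (-3.33, adjusted p = 2.71e-10), the collagenase gene Mmp13 from 874, 879 and 893 to 201, 207 and 209.8 FPKM (-2.09), and the inhibitor gene Serpine2 by 2.09 on the log2 scale. Among the higher ones were Plau, urokinase (9.64, 9.94 and 9.01 against 56, 53.9 and 54.6 FPKM, 2.41), and Mmp9 (2.36) and Mmp12 (2.95), proteases that macrophages also make.

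Cartilage and bone markers fell in 7 of 9 cases and rose in none. Members such as Alpl, at 0.589 FPKM or less in every other library, passed the filter only through WT MEF without LiCl and had to be lower. Comp, a cartilage matrix protein gene, stood at 40.2, 36.6 and 34.1 FPKM in the WT libraries against 0.427, 0.21 and 0.342 FPKM in the HSF1 KO libraries (-4.84, adjusted p = 2.71e-10), and Col10a1, the collagen of hypertrophic cartilage, at 91.1, 92.3 and 95.7 against 8.09, 8.52 and 7.33 FPKM (-3.39). The alkaline phosphatase gene Alpl (-2.58), Col2a1 (-1.80) and the factor genes Sp7 (-1.41) and Sox9 (-1.10) were lower, while Runx2 did not pass (-0.04, adjusted p = 0.801). The genes of the list summed to 163 to 167 FPKM in WT MEF and to 19.6 to 19.7 FPKM in HSF1 KO MEF. Scx, the tendon factor gene, which lies beside Hsf1, was lower too (-1.29).

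Contractile genes of myofibroblasts moved opposite to these. Of 15, 13 were higher in HSF1 KO MEF, 1 was lower (Des, the muscle intermediate filament gene, -0.85) and 1 did not pass (Smtn, -0.12, adjusted p = 0.342), with a median of 1.17. Acta2, which encodes α-smooth muscle actin, stood at 662, 636 and 608 FPKM in the WT libraries against 2497, 2441 and 2076 FPKM in the HSF1 KO libraries (1.87, standard error 0.09, adjusted p = 3.45e-08), a 3.68-fold rise and the largest gain in FPKM of any gene named. Tagln rose from 387, 373 and 382 to 1120, 1155 and 946 FPKM (1.49), the tropomyosin gene Tpm2 from 209.7, 218 and 219 to 493, 507 and 472 FPKM (1.18), and the calponin genes Cnn1 by 2.23 and Cnn2 by 1.13 on the log2 scale. The summed level of the 15 genes was 2359 to 2437 FPKM in WT MEF and 6333 to 6958 FPKM in HSF1 KO MEF. Actg2 (2.16) and Acta1, the skeletal muscle actin gene (1.4, 1.52 and 1.54 against 21.8, 24.3 and 27.2 FPKM, 3.35), rose as well, so 3 actin genes of muscle were higher at once. Skeletal muscle was otherwise nearly undetected, with 4 of 18 markers in the table.

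Cell cycle genes were higher in HSF1 KO MEF. All 28 mitosis genes tested were higher, with a median log2 fold change of 1.43, and they summed to 38.8 to 42.5 FPKM in WT MEF and to 165 to 175 FPKM in HSF1 KO MEF. Tpx2, a spindle assembly factor gene, rose from 3.55, 3.21 and 3.43 to 11.5, 12.4 and 11.4 FPKM (1.54, adjusted p = 2.59e-08), Birc5, which encodes survivin, from 2.97, 3.61 and 3.17 to 13.4, 15.4 and 12.7 FPKM (1.80), and the kinase gene Aurka from 1.62, 1.27 and 1.46 to 6.73, 5.9 and 6.86 FPKM (1.61). The proliferation marker Mki67 went from 0.921, 1.01 and 0.919 to 5.2, 4.79 and 5.67 FPKM (1.67). All levels were low in both groups, and the groups did not overlap for these 4 genes. Of 29 DNA replication genes, 24 were higher and 1 was lower, with a median of 0.69. They included the helicase subunit genes Mcm5 (WT 1.55, 1.21 and 1.26 FPKM, HSF1 KO 7.06, 6.55 and 6.27 FPKM, 1.71), Mcm6 (1.56) and Mcm3 (1.26), and Uhrf1 (1.49), which maintains DNA methylation. The lower one was Rrm2, a subunit of ribonucleotide reductase, at 65.1, 65.5 and 68.3 FPKM in the WT libraries against 45.2, 45.1 and 49.1 FPKM in the HSF1 KO libraries (-0.50).

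The promoters of 2 mitosis genes are shown with TTTGAA or its reverse complement TTCAAA in capitals, the cell cycle homology element by which genes of this phase are repressed in resting cells. They are Cdc20 at chr4:118437294-118437593 (reverse strand), whose gene activates the anaphase-promoting complex, and the kinase gene Plk1 at chr7:122159185-122159484 (forward).
Cdc20: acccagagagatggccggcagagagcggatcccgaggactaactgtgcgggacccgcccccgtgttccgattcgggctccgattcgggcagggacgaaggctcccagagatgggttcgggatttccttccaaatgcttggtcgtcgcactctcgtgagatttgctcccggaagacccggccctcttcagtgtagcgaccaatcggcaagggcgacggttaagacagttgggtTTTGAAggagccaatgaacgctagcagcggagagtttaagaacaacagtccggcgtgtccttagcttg
Plk1: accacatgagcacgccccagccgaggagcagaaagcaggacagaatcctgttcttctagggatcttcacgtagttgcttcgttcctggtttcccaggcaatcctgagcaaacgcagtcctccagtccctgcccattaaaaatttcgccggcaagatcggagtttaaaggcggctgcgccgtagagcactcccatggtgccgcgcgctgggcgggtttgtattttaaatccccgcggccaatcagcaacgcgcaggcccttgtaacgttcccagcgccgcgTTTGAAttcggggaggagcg

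The match lay 18 bases before the start in Cdc20 and 30 after it in Plk1. The letters were in 16 of 22 mitosis genes with a window, under 80% of the 28 members, and in 17.9% of all windows, and they are short enough to occur often by themselves. Cdc20 had a log2 fold change of 1.76 and Plk1 of 1.65.

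The brakes of the cycle were lower in part. Of 29 p53 targets and inhibitors of cyclin-dependent kinases (CDK), 5 were higher, 14 lower and 10 did not pass. Cdkn1a, which encodes the CDK inhibitor p21, stood at 758, 739 and 686 FPKM in the WT libraries against 478, 469 and 436 FPKM in the HSF1 KO libraries (-0.66, adjusted p = 1.61e-05), and Cdkn2c, which encodes p18, at 7.34, 7.32 and 8.06 against 2.93, 2.81 and 2.72 FPKM (-1.16). In contrast, the locus of p16 and p19ARF, Cdkn2a, rose from 123, 129.7 and 102 to 222, 198 and 194 FPKM (0.79), and Pmaip1, the gene of the death-promoting protein NOXA, from 21.1, 22.1 and 25.1 to 67.9, 65.3 and 71 FPKM (1.54). Mdm2 (-0.04, adjusted p = 0.867) and Bax (0.01, adjusted p = 0.958) did not pass. The count of higher genes was 3 without the unnumbered WT library, KO replicate 1 or KO replicate 2, and after quantile normalization.

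**Figure D3:**
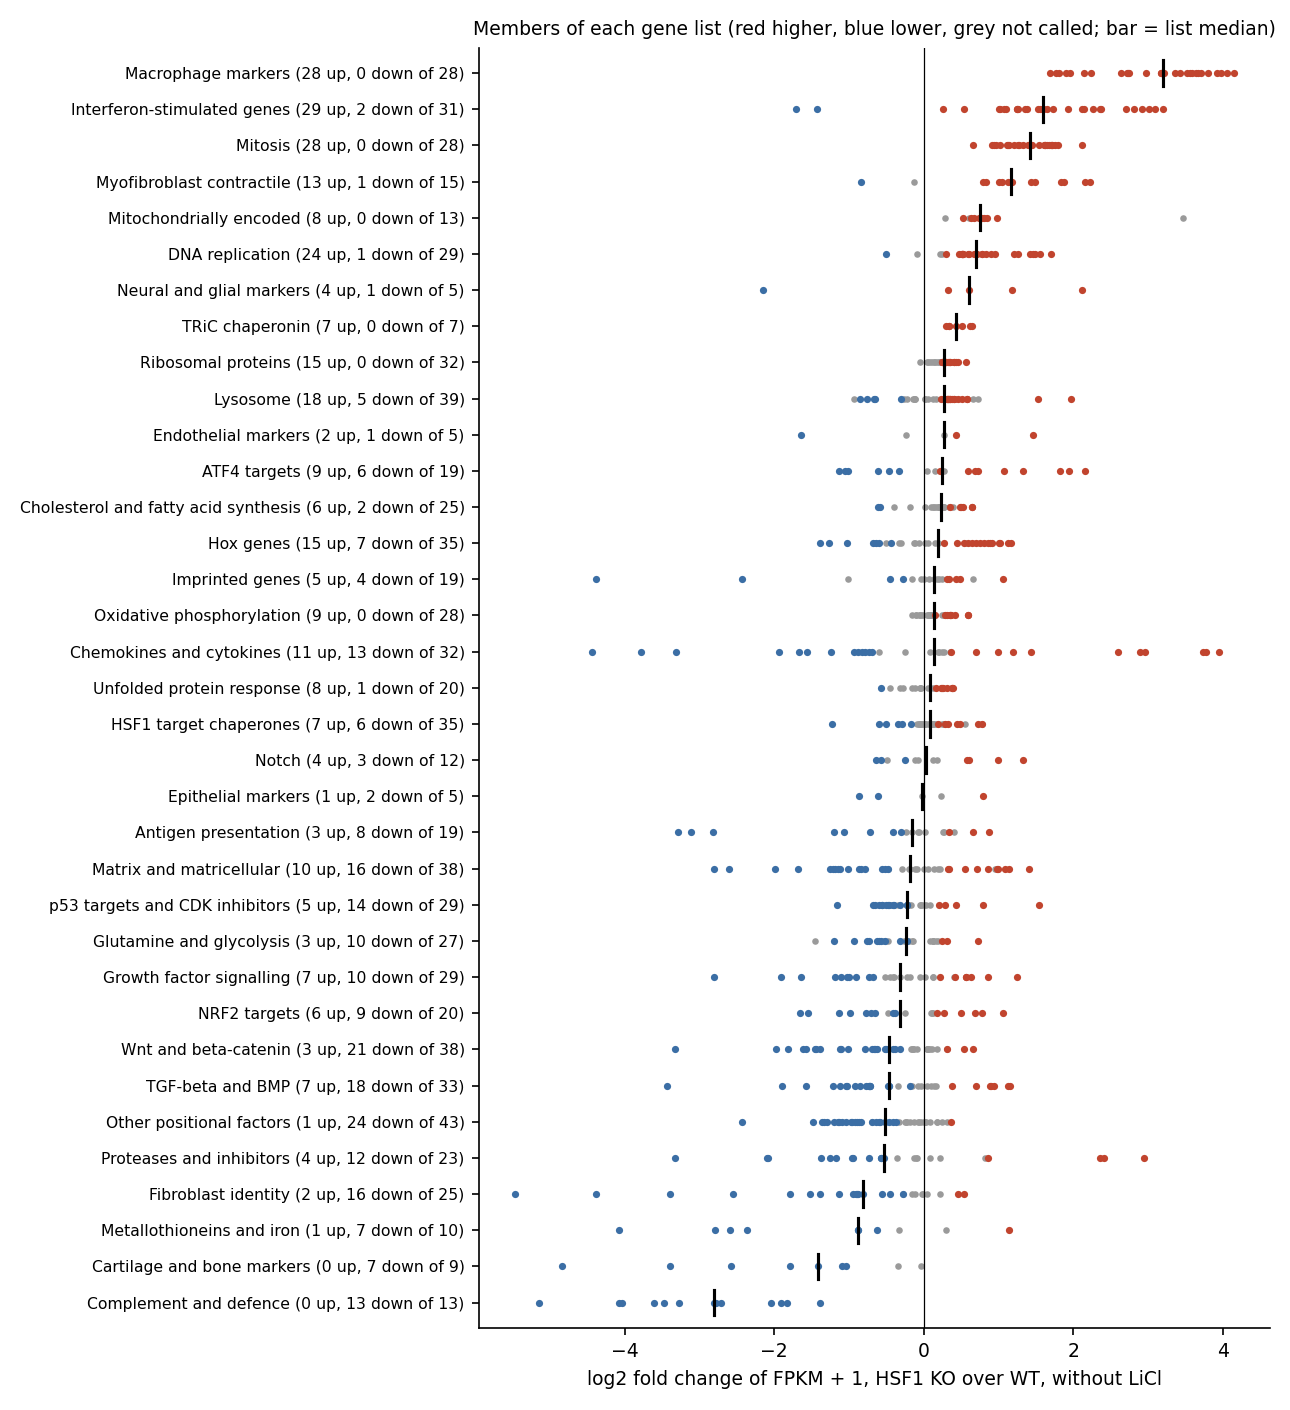
Log2 fold change of each member of the gene lists with 5 or more genes tested, 1 point per gene. Red is higher, blue lower and grey not called at an adjusted p under 0.05, and the median of the list is a black bar. Lists with fewer genes tested, such as the sex chromosome genes (median -3.34), and the lists of HIF targets and X-linked genes are not drawn. Macrophage markers, interferon-stimulated genes and mitosis genes lie at the top, with medians of 3.19, 1.60 and 1.43, and complement and defence genes at the bottom, with a median of -2.80.

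Hox genes, which encode position along the body axes, went in both directions. Of 35 tested, 15 rose and 7 fell. A split of the genes by number was chosen after their values were seen and gets no test. In groups 1 to 8, which mark anterior and middle positions, 13 of 20 were higher and 1 (Hoxd8, -0.60) was lower. In groups 10 to 13, which mark posterior and distal positions, none of 11 was higher and 4 were lower, and of the 4 genes of group 9 Hoxb9 and Hoxc9 were higher and Hoxa9 and Hoxd9 lower. Of these, Hoxb9 did not pass without either unnumbered library (adjusted p = 0.0584 and 0.0559), Hoxc9 without any one of the 6 libraries (from 0.0616 to 0.119), and Hoxd9 without WT replicate 1, WT replicate 2 or the unnumbered KO library (from 0.0874 to 0.111). Hoxb6 stood at 2.72, 3.33 and 2.76 FPKM in the WT libraries against 7.9, 7.91 and 6.9 FPKM in the HSF1 KO libraries (1.12, adjusted p = 1.12e-05), and Hoxb5 at 0.714, 0.658 and 0.816 against 2.69, 2.29 and 2.6 FPKM (1.03). Hoxc13 fell from 3.53, 3.73 and 3.51 to 0.832, 0.738 and 0.679 FPKM (-1.39, adjusted p = 6.13e-07) and Hoxc12 from 1.84, 1.28 and 1.77 to 0.133, 0 and 0.128 FPKM (-1.27). All are low values of a few FPKM. Hoxb13, which was below the filter, was at 0.947, 1.75 and 1.57 FPKM in WT MEF and was listed at 0 in all HSF1 KO libraries, whereas Hoxd13, at 27.8, 29.1 and 29.8 against 28.7, 29.1 and 30.3 FPKM, did not pass (0.02, adjusted p = 0.858).

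**Figure D4:**
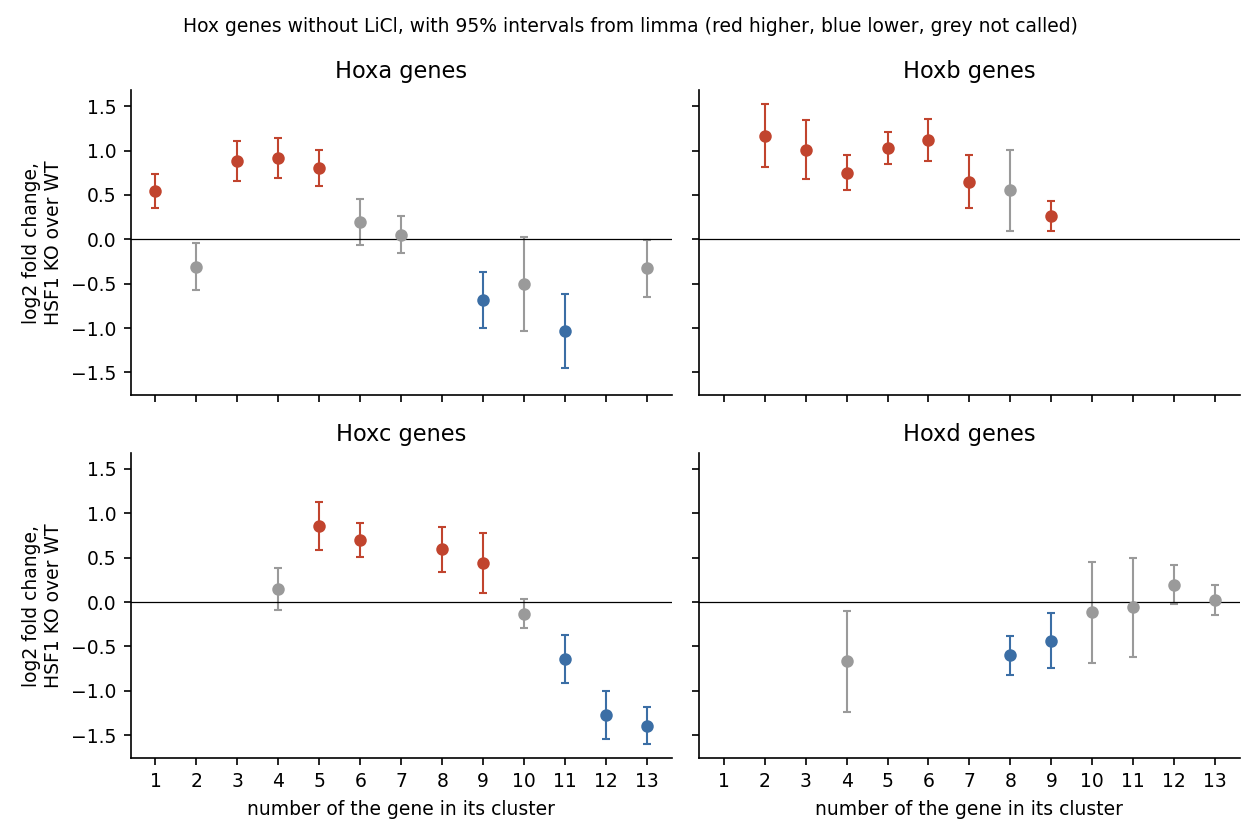
Log2 fold change of the Hox genes in HSF1 KO MEF over WT MEF against their number in each of the 4 clusters, with 95% intervals from limma (red higher, blue lower, grey not called). In the Hoxa, Hoxb and Hoxc clusters the lower numbers lie mostly above 0, and Hoxa11, Hoxc11, Hoxc12 and Hoxc13 lie below 0, while in the Hoxd cluster no gene is higher.

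Other factors that pattern limbs and organs were mostly lower, 24 of 43 with 1 higher (Foxc2, 0.37) and a median of -0.52. Barx1, a factor of stomach and jaw mesenchyme, fell from 7.19, 6.42 and 4.54 to 0.231, 0.402 and 0.226 FPKM (-2.44, adjusted p = 5.52e-07), and Hand2, a factor of limb and heart, from 17.9, 19 and 19 to 7.15, 6.16 and 6.57 FPKM (-1.37). The hindlimb genes Tbx4 (-1.19) and Pitx1 (-1.13) and the forelimb gene Tbx5 (-1.34) were all lower. In contrast En1 (-0.03, adjusted p = 0.816) and Msx2 (-0.08, adjusted p = 0.425) did not pass. The count of higher genes was 2 without the unnumbered WT library or KO replicate 2, and 3 with no filter on low values.

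Wnt pathway genes, which bear on the response to LiCl, were lower in 21 of 38 cases and higher in 3 before any LiCl. Of the genes of secreted antagonists, Sfrp2 fell from 19.9, 20.3 and 20.2 to 1.12, 1.38 and 0.834 FPKM (-3.33, adjusted p = 1.94e-09), Sfrp1 from 36.4, 38.7 and 40.5 to 11.7, 12.2 and 13.1 FPKM (-1.57), and Dkk3 from 94.2, 93.7 and 96.8 to 33.8, 34.6 and 34.6 FPKM (-1.44). Lgr5, a receptor of R-spondins, went from 3.01, 3.21 and 4.1 to 0.205, 0.0451 and 0.121 FPKM (-1.98), and the feedback targets Axin2 (1.48, 1.12 and 0.722 against 0.42, 0.241 and 0.302 FPKM, -0.66), Notum (-1.61) and Nkd2 (-1.02) were lower. The core of the pathway did not pass: Ctnnb1, which encodes β-catenin, had a log2 fold change of 0.04 (adjusted p = 0.855), Gsk3b of 0.06 (adjusted p = 0.761) and Apc of -0.17 (adjusted p = 0.732). The receptor genes Fzd7 (0.66) and Ror1 (0.31) and the target Myc (0.54) were the 3 higher genes, and 1 was higher without WT replicate 2 or KO replicate 2. Ror1, whose libraries overlap, did not pass without WT replicate 1, WT replicate 2, KO replicate 2 or the unnumbered KO library (adjusted p from 0.0821 to 0.114), and Myc not without WT replicate 2, the unnumbered WT library, KO replicate 1 or KO replicate 2 (from 0.0538 to 0.0641).

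Of 33 genes of TGF-β and bone morphogenetic protein (BMP) signalling, 7 were higher and 18 lower. The ligand genes Tgfb3 (WT 41.1, 44 and 44 FPKM, HSF1 KO 77.5, 80.9 and 82.2 FPKM, 0.88), Tgfb2 (1.15) and Inhba (1.13) were higher, and the receptor genes Tgfbr3 (-1.90) and Tgfbr2 (-0.72) lower. Gdf6, a BMP ligand of joints, fell from 13.2, 12.6 and 13.9 to 0.115, 0.456 and 0.416 FPKM (-3.43, adjusted p = 1.76e-09), and Gdf10 by 1.58 on the log2 scale. The target Smad7 did not pass (-0.04, adjusted p = 0.775). Of 29 growth factor genes, 7 were higher and 10 lower. Igfbp5, an IGF-binding protein gene, fell from 25.2, 24.3 and 25.1 to 2.46, 2.65 and 3.06 FPKM (-2.80, adjusted p = 2.86e-09), with Fgf10 (-1.90), Hgf (-1.64) and Igfbp3 (-1.03), while Igf1 rose from 6.98, 7.75 and 9.87 to 21.2, 22.2 and 18.5 FPKM (1.24).

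Of all genes named, Ndufa4l2 had the largest fall on the scale of log2(FPKM + 1). By the ratio of mean FPKM in WT MEF to that in HSF1 KO MEF, others fell further, among them Comp (113) and Ddx3y (288). Ndufa4l2 is a relative of a respiratory chain subunit gene that is induced in low oxygen. It stood at 154, 158 and 205 FPKM in the WT libraries against 1.65, 1.33 and 2.42 FPKM in the HSF1 KO libraries (-5.96, standard error 0.23, adjusted p = 1.05e-08), 96.0 times less. Car9, a carbonic anhydrase gene induced by the hypoxia factor HIF, fell from 41.5, 34.2 and 48.3 to 0.78, 0.601 and 0.44 FPKM (-4.71). The WT libraries of both genes lay far above the HSF1 KO libraries. After these values were seen, 35 HIF targets were listed, of which 28 were lower, 11 of them with a log2 fold change under -1, and 1, Hk2 (0.24), was higher, with a median of -0.76. Hk2 did not pass without WT replicate 1, WT replicate 2 or the unnumbered KO library (adjusted p = 0.0539, 0.0545 and 0.0541). Cox4i2, another hypoxic respiratory subunit (-3.75), Adm (-2.63), Bnip3 (-1.31) and the prolyl hydroxylase gene Egln1 (-1.36) were among them. Epas1, which encodes HIF2α, fell from 16.7, 15.2 and 15.6 to 3.1, 3.31 and 3.26 FPKM (-1.99), and Hif1a did not pass (-0.32, adjusted p = 0.117). With the replicate block Hif1a passed as lower (adjusted p = 0.00464). Of 27 genes of glutamine use and glycolysis, 3 were higher and 10 lower, with Ldha at 1001, 986 and 862 FPKM in the WT libraries against 601, 584 and 528 FPKM in the HSF1 KO libraries (-0.73).

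Of 10 genes of metal binding and iron, 7 were lower and 1 was higher. Mt1 fell from 940.2, 891 and 669 to 134, 161 and 116 FPKM (-2.60, adjusted p = 3.69e-07) and Mt2 from 1150, 1122 and 967 to 149, 182 and 135 FPKM (-2.80, adjusted p = 2.41e-08), both metallothioneins that bind zinc and copper. The ferroxidase gene Cp (-2.36) and the ferritin heavy chain gene Fth1 (-0.88) were lower, the latter not after quantile normalization (-0.15, adjusted p = 0.491), and the transferrin receptor gene Tfrc was higher (1.14). Of 20 targets of NRF2, the antioxidant factor, 6 were higher and 9 lower. Gclc, which encodes the catalytic subunit of the first enzyme of glutathione synthesis, fell from 40.7, 38.7 and 42.9 to 12.7, 12.5 and 11.7 FPKM (-1.65, adjusted p = 7.59e-09), with Gstm1 (-1.55), Gsta4 (-1.13) and Nqo1 (-0.99). Prdx1 (0.78) and Hmox1 (0.49) went up instead.

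Of 39 lysosomal genes, 18 were higher and 5 lower. Gpnmb, a lysosomal glycoprotein gene, rose from 40.5, 40.7 and 40.8 to 160.1, 160.4 and 167 FPKM (1.97, adjusted p = 3.41e-10), Ctsc, which encodes cathepsin C, by 1.53 and Lamp1 by 0.46 on the log2 scale. Ctsk (-0.85) and the factor gene Mitf (-0.66) were lower, and the count of lower genes was 3 without WT replicate 2. Macrophages express several lysosomal genes strongly, and the part of the macrophage markers in these rises was not tested. Of 12 Notch pathway genes 4 were higher and 3 lower, 2 higher with a filter at 1 FPKM, and of 25 genes of cholesterol and fatty acid synthesis 6 were higher and 2 lower, 10 higher under median-of-ratios scaling or quantile normalization. Over all genes tested, 17.8% were higher and 20.4% lower. Of 32 ribosomal protein genes, 15 were higher, of 28 nuclear genes of oxidative phosphorylation 9, of 13 genes encoded in mitochondria 8, and none was lower. The median log2 fold change was 0.28 for the ribosomal protein genes and 0.75 for the genes encoded in mitochondria. These counts were 9, 5 and 5 without WT replicate 2 and 7, 3 and 5 without KO replicate 2. mt-Nd4 was at 442, 0.439 and 648 FPKM in WT MEF, where WT replicate 2 stands apart, against 653, 968 and 875 FPKM for HSF1 KO (3.46, adjusted p = 0.311).

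Of 10 sex chromosome genes listed, 4 were in the table, all on the Y chromosome, and all 4 were lower. Xist and Tsix, genes of the X chromosome, were among those not in the table, so their RNA could not be read. Eif2s3y stood at 18.8, 18.1 and 19.8 FPKM in the WT libraries against 0, 0 and 0.0692 FPKM in the HSF1 KO libraries (-4.28, adjusted p = 2.71e-10), and Ddx3y at 14.3, 11.9 and 26.8 against 0.0489, 0.0412 and 0.094 FPKM (-4.05). Uty (-2.63) and Kdm5d (-1.60) were near 0 in HSF1 KO MEF as well. Of the other 3 genes tested on this chromosome, Gm21860, a predicted gene of low level, was higher (0.58, adjusted p = 0.0437), and did not pass without any one of the WT libraries or KO replicate 2 (from 0.055 to 0.152). All WT libraries thus held RNA of the 4 listed genes, and the HSF1 KO libraries almost none. Of 7 X-linked partners and escape genes, listed after these values were seen, 4 were higher and none was lower, among them Eif2s3x, at 25.1, 25.7 and 32.3 FPKM in the WT libraries against 56.5, 59.6 and 71.6 FPKM in the HSF1 KO libraries (1.15), while Ddx3x (0.28, adjusted p = 0.129) did not pass. The Y-linked genes move with the genotype in every library, and their chromosome, the sex of the embryos and the HSF1 genotype cannot be told apart as sources of the differences.

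The median log2 fold change of a chromosome lay between -0.06 and 0.05 on the autosomes and the X chromosome. Within 5 Mb of Hsf1, 28 of 138 genes were higher and 37 lower, which is 20.3 and 26.8% against 17.8 and 20.4% of all genes tested. Of the 3 nearest genes in the table on each side of Hsf1, Scx was lower, and Mroh1 (0.76, adjusted p = 0.371), Bop1 (0.23, adjusted p = 0.0652), Dgat1 (-0.35, adjusted p = 0.0805), Fbxl6 (-0.01, adjusted p = 0.963) and Slc52a2 (0.15, adjusted p = 0.348) did not pass. Of 19 imprinted genes, 5 were higher and 4 lower, led by Dcn and Mest (9.28, 8.56 and 10.1 against 0.657, 0.966 and 1.14 FPKM, -2.43), and 3 were higher without WT replicate 1 or the unnumbered WT library. Counts of this size lie near the 17.8 and 20.4% of all genes tested. The proliferin genes Prl2c2 (1.19) and Prl2c3 (0.43), near-identical copies whose reads may be shared, were higher.

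Markers of other cell types that a culture from embryos could hold were few. Of 18 epithelial markers 8 were in the table, all at 7.61 FPKM or less in each of the 6 libraries, and of 14 endothelial markers 6. Flt1 rose from 5.11, 4.73 and 4.88 to 14.4, 15.2 and 16 FPKM (1.46) and Eng fell (-1.64). Of 5 neural markers 4 were higher, led by Nes, an intermediate filament gene (4.0, 4.26 and 3.64 against 22.1, 19.6 and 19.7 FPKM, 2.11), and S100b was lower (-2.15). Of 4 adipocyte markers Fabp4 (-1.33), Lpl (-0.61) and Cebpa (-0.41) were lower, and Cd36, a scavenger receptor that macrophages carry too, was higher (4.5, 3.93 and 5.86 against 56.5, 56.1 and 63.2 FPKM, 3.38). Only 5 epithelial, 5 endothelial, 5 neural and 4 adipocyte markers were tested, so these lists cannot be set against the 28 macrophage markers.

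The libraries with LiCl hold the same genotypes and gave no value to the baseline fold changes, although all 12 libraries share one estimate of the spread. In them, HSF1 KO MEF were higher for 2411 genes (19.6%) and lower for 2820 (23%). Of the 2181 genes higher without LiCl, 1122 (51.4%) were higher and 267 (12.2%) lower with LiCl, and of the 2503 lower genes 1190 (47.5%) were lower and 231 (9.23%) higher. These shares are read against the 19.6 and 23% of all genes. Of the 28 mitosis genes 28 were higher again, of the 15 contractile genes 13 were higher and 1 lower, and of the 13 complement and defence genes 12 were lower and 1, Ptx3, was higher (2.45, against -1.39 without LiCl). The 4 Y-linked genes were lower in both. Hsph1 was lower again (-0.80, adjusted p = 2.05e-05), and so was Hsf1 (-1.10, adjusted p = 0.0159).

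Other groups did not repeat, or did so in part. Of the 28 macrophage markers 15 were higher and 2 lower with LiCl, with a median of 0.35 in place of 3.19 and summed levels of 43 to 47.7 FPKM in WT MEF and 120.4 to 136 FPKM in HSF1 KO MEF. Of the 31 interferon-stimulated genes, 4 were higher and 8 lower, with a median of -0.06, and Ifit3 had a log2 fold change of -0.04 (adjusted p = 0.668). Of the 39 lysosomal genes 2 were higher and 20 lower, with Gpnmb lower (-1.27). Of the 38 other matrix and matricellular genes 22 were higher and 8 lower, with a median of 1.02 in place of -0.19. Of the 35 HIF targets 3 were higher, among them Adm (1.46), and 18 lower. Fibroblast identity genes were higher in 10 and lower in 10 of 25 cases, with Dcn (-3.44) and Lum (-3.63) still lower and Col3a1 not past the threshold (0.03, adjusted p = 0.808). Of the 35 Hox genes 12 were higher and 7 lower, with 9 higher and 1 lower in groups 1 to 8 and 3 higher and 6 lower in groups 10 to 13.

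**Figure D5:**
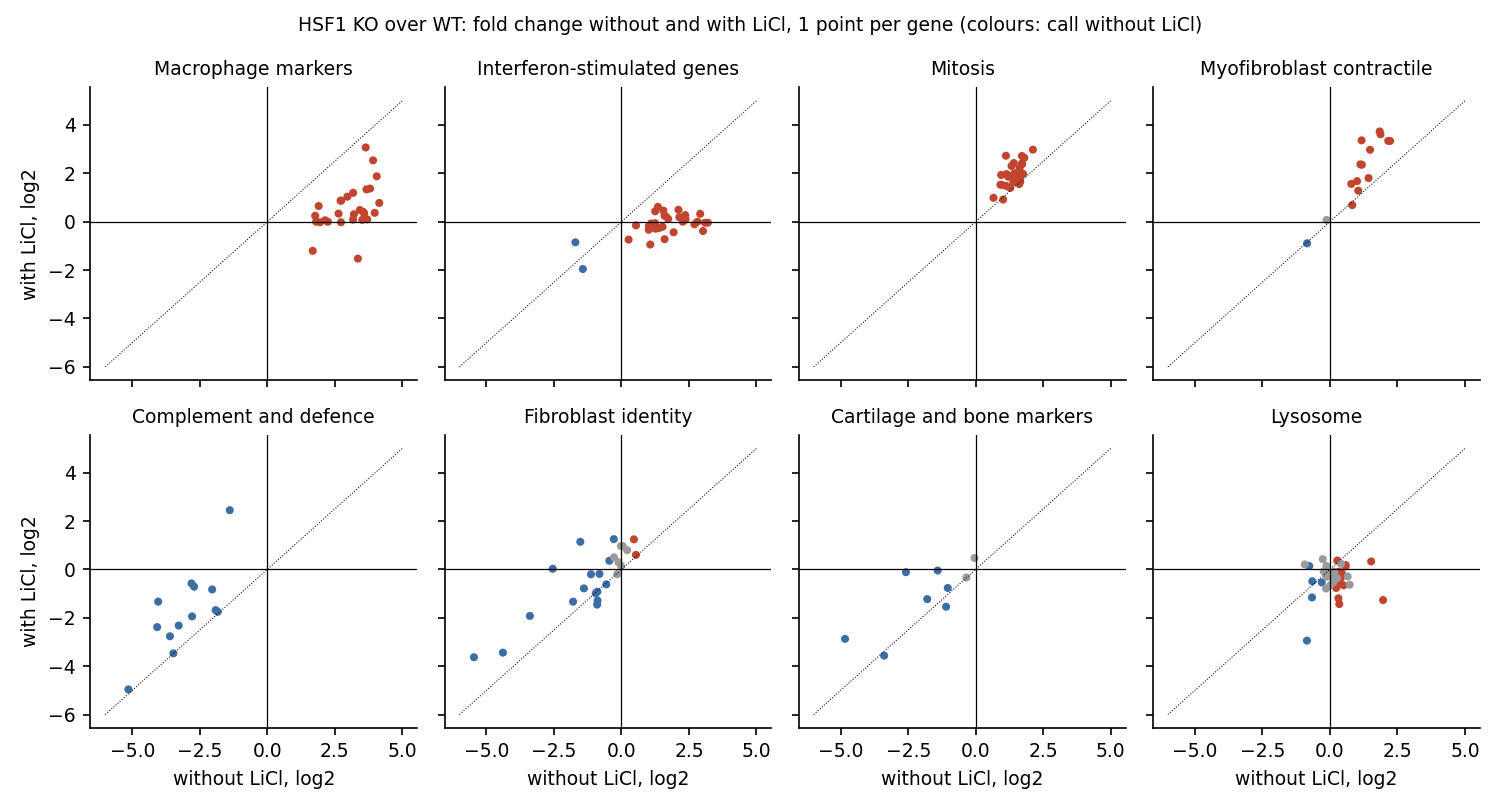
Log2 fold change in HSF1 KO MEF over WT MEF with LiCl (y axis) against that without LiCl (x axis) for the members of 8 gene lists, 1 point per gene, coloured by the call without LiCl (red higher, blue lower, grey not called), with a dotted line where both are equal. Mitosis and contractile genes lie above 0 on both axes with few exceptions, and the median of the interferon-stimulated genes lies near 0 on the y axis.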

How the data were processed

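Poly(A) RNA of 12 MEF libraries, 3 for each genotype with or without LiCl, was made into stranded libraries and sequenced. Per the labels, the authors used cutadapt, HISAT2 2.0.5 and StringTie on GRCm38. The deposited table gives each transcript a value in each library, taken here to be FPKM from the tools, as no source used here names the unit. Each of its 27185 transcripts has a mean of at least 0.5 FPKM in at least 1 group, so weaker transcripts are not in it, and no counts are given, so the read depth is unknown.

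Values were summed per gene for the 27115 transcripts matched to GENCODE vM21, and the other 70 were left out. Genes that averaged 0.5 FPKM or more across the 12 libraries were fitted as log2(FPKM + 1) with limma 3.58.1 (R 4.3.3, empirical Bayes with a variance trend) as 4 group means that share one spread. P-values are two-sided and were adjusted by the Benjamini-Hochberg method over all 12279 genes, with a threshold of 0.05. The fit was tested on simulated data. The alternatives were another pseudocount (0.1), another filter (none, or 1 FPKM), median-of-ratios scaling, quantile normalization, a fit of the 6 libraries alone, a replicate block and leaving out each library.

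The comparison and all gene lists were chosen with earlier results of these data known. Named by rule were Hsf1 and its neighbours, the 15 largest rises and falls, the 5 largest FPKM differences each way, the members with the smallest adjusted p in each list (at most 4), and all HSF, sex chromosome and proliferin genes. Every other gene named was chosen after its values were seen, and so were the lists of HIF targets and X-linked genes. Some genes that the rule or a list holds are counted in it but are not reported here by name. Promoter windows are from RefSeq.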

Additional observations from a re-analysis of the deposited data

Results flagged for a closer look

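Of the 5 largest rises and 5 largest falls, 9 genes had a fold change between HSF1 KO MEF and WT MEF that differed between the conditions by the limma interaction term, given as the log2 fold change with LiCl less that without. The 10 genes were chosen for their fold change without LiCl, which enters the difference, so a smaller fold change with LiCl was favoured by the choice. For Pf4 the difference was -3.04 (adjusted p = 7.65e-06), and it was still higher in HSF1 KO MEF with LiCl (2.69). For Marco it was -3.20 (adjusted p = 1.09e-06), with 1.63 left under LiCl. For Kctd12 it was -3.35 (adjusted p = 2.44e-06) and for C1qb -3.37 (adjusted p = 3.22e-07), with 0.82 and 0.78 left. For Ccl12 it was -3.68 (adjusted p = 2.17e-05), and the fold change with LiCl did not pass (0.41, adjusted p = 0.221). With LiCl, Kctd12, C1qb and Ccl12 averaged 0.163, 0.132 and 0.0645 FPKM in WT MEF. In HSF1 KO MEF they averaged 1.01, 0.933 and 0.454 FPKM, where the added 1 FPKM limits the fold change. The ratio of mean FPKM of HSF1 KO MEF to that of WT MEF went from 94.4 to 18.4 with LiCl for Pf4. It went from 39.1 to 11.6 for Marco, from 33.0 to 7.09 for C1qb and from 49.8 to 7.04 for Ccl12.

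For 4 of the falls the fold change of FPKM + 1 was nearer to 0 with LiCl. The difference was 1.33 for Ndufa4l2 (adjusted p = 0.0111), 1.83 for Lum (adjusted p = 6.51e-06), 1.97 for Comp (adjusted p = 2.81e-06) and 2.34 for Prelp (adjusted p = 6.86e-07), and all 4 genes were still lower in HSF1 KO MEF with LiCl, by -4.63, -3.63, -2.87 and -2.42. For Lcn2 the difference did not pass (0.18, adjusted p = 0.533). WT MEF with LiCl held less of these 4 transcripts, with mean levels of 33.9 ± 2.93, 24.5 ± 3.48, 7.0 ± 0.579 and 4.89 ± 0.525 FPKM (SD, n = 3). HSF1 KO MEF with LiCl were near 0 for them, with means of 0.463, 1.05, 0.0933 and 0.0965 FPKM, where the added 1 FPKM limits the fold change. The ratio of the mean FPKM of WT MEF to that of HSF1 KO MEF went from 96.0 without LiCl to 73.3 with it for Ndufa4l2, from 53.3 to 23.4 for Lum and from 113.3 to 75.0 for Comp, and for Prelp it was larger with LiCl (35.4 and 50.6).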

How the results depend on the processing

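The number of genes higher was 1872 to 2102 and lower 2062 to 2272 with each library left out in turn, and with a log2 fold change over 1 it was 517 to 556 and 569 to 591. No gene called in HSF1 KO MEF without LiCl was called in the opposite direction under any of the 13 alternatives, and the counts of all genes stayed within 1.5 times. The median of all genes moved from -0.03 to -0.012 under median-of-ratios scaling and to 0.000549 after quantile normalization. Spp1 reversed after quantile normalization (0.31, adjusted p = 0.292), and the cause was not tested. Of 264 named genes that passed, 247 passed under every alternative that tested them. The fit of the 6 libraries without LiCl alone gave 1957 genes higher and 2257 lower. Beyond the settings named with each gene above, Atf4, Dnaja2, Gm21860, Hk2, Hoxd9, Ptges3 and Ror1 did not pass in that fit (adjusted p = 0.0513 to 0.0991). The replicate block gave 2426 genes higher and 2774 lower, and 12 in place of 7 chaperones higher. With it Hif1a, Hspa8, Chordc1, Ddit3, Ddx3x, Bop1 and Dgat1 passed (adjusted p = 0.00464 to 0.0359) and Gm21860 did not (adjusted p = 0.0631). The deviations of the libraries numbered 1 or 2 correlated with those of the same number at -0.01 to 0.14, and those of the 4 unnumbered libraries with each other at 0.13 to 0.20. Saa3 and Fth1, for example, were lowest in the unnumbered library of every group. The labels give no shared culture or day for them, so the main fit used no pairing. Whether the unnumbered libraries share a run or culture was not tested. Read depth is unknown, so the error of counting behind low FPKM cannot be given, and 3 libraries per group cannot separate genotype from culture.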
